A study of Mus musculus with 1187 samples.

Results

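Vascular endothelial growth factor (VEGF) signalling was described here in brain endothelium through 8 genes chosen by name: the receptor tyrosine kinases Kdr, Flt1 and Flt4, the co-receptors Nrp1 and Nrp2, and the ligands Vegfa, Vegfc and Pgf. All 8 were rows of a deposited count table of 46517 genes and 1187 cells. The cells were sorted from brains of 3-month-old C57BL/6 mice that carried the Pdgfb ret allele and both the Cldn5-GFP and Cspg4-DsRed reporters, as GFP-positive and DsRed-negative cells, and each was sequenced as a library of its own by Smart-seq2, which reads full-length cDNA without molecular identifiers. The labels name 590 cells of genotype Pdgfb ret/+ and 597 of Pdgfb ret/ret, in which both Pdgfb alleles lack the retention motif of PDGF-B and the brain is short of pericytes. The labels number the cells and the table names them by plate and well, so no cell could be given a genotype, and no label names an animal. All cells were therefore treated as 1 pooled sample of both genotypes, with plates 521, 522, 523 and 524 (300, 290, 285 and 312 cells) as batch. No p-value is therefore given, and the genotypes were not compared. Plates 521 and 522 add up to 590 cells and plates 523 and 524 to 597, the label totals of the genotypes, which does not tell what any plate holds. Differences between plates may thus coincide with genotype or animal and cannot be told apart from them.

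VEGF-A binds KDR (VEGFR2), the main signalling receptor for endothelial growth and permeability, and FLT1 (VEGFR1), which binds VEGF-A tightly, signals weakly and in a soluble form acts as a decoy. PGF binds FLT1 and not KDR, and VEGF-C binds FLT4 (VEGFR3), best known from lymphatic vessels and sprouting tip cells, and once processed also KDR. The neuropilins NRP1 and NRP2 hold VEGF ligands beside these kinases and are also receptors for class 3 semaphorins, NRP1 being known from arterial and NRP2 from venous and lymphatic endothelium in the embryo. In the adult brain most VEGF-A is known to come from cells outside the endothelium.

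The sequences just upstream of 4 genes are shown because the results return to these members: Kdr as the main signalling receptor, Flt1 and Nrp2 in opposite directions with venous markers, and Vegfc with arterial markers. They are the bases before the RefSeq start site on GRCm38.p6, 5′ to 3′ on the gene's strand, shortened where a GENCODE M21 transcript begins earlier. Capitals mark GGAAG or its reverse complement CTTCC, a core of ETS factor sites.
Kdr, chr5:75978459-75978705, minus strand: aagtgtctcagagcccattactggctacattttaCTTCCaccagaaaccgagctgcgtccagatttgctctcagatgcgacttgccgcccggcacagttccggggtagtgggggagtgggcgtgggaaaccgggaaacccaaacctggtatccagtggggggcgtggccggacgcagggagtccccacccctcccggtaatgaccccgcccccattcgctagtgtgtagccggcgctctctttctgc
Flt1, chr5:147726012-147726261, minus strand: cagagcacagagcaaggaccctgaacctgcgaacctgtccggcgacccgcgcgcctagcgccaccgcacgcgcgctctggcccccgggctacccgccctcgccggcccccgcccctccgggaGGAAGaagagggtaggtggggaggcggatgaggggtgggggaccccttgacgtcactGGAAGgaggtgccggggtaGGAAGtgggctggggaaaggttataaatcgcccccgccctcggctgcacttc
Nrp2, chr1:62703067-62703284, plus strand: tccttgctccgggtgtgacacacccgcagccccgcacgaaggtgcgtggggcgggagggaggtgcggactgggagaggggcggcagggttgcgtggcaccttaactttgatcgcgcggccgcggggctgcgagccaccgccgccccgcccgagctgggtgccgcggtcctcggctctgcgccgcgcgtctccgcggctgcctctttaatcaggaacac
Vegfc, chr8:54077282-54077531, plus strand: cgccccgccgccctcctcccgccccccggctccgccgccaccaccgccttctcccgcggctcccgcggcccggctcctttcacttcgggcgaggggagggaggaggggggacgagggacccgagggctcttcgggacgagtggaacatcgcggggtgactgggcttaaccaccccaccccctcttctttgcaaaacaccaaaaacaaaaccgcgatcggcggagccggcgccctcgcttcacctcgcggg
All 8 members matched a RefSeq promoter. In the 250 bases before each start, 4 short motifs were looked for on both strands, none of which lies within another. GGAAG occurred 3 times in Flt1, at 128, 71 and 52 bases before the start, and 3 times in Nrp1, while Kdr, Flt4 and each of 2 Vegfa starts held 1; 64.1% of 32851 promoter windows of this length hold it. AGGTCA, a half-site bound by NR2F2, was found in Nrp1 alone among the members, 246 bases before the start (14% of windows). ACGTG, the core of hypoxia response elements, was found in 1 of the Vegfa windows alone (16.6% of windows), and AACAAT, a SOX core, in no member (9.42% of windows). These letters describe the windows and locate no binding site.

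Cells held between 100779 and 584112 gene-assigned reads (median 360947). The sorted cells carried the endothelial markers Cldn5, Pecam1, Cdh5, Tek, Tie1, Ocln and Slc2a1, whose summed level was 11245 to 12242 CPM (counts scaled to a total of 1000000) over the plates. At least 3 markers of another cell type at 100 CPM or more were seen in 18 cells. Of 4 lymphatic markers, Ccl21a was at 0 and Prox1 at 1.57 CPM. Levels below are CPM of counts summed over cells, and shares of cells with a read were taken after thinning each cell to 100000 reads. Intervals (exact Poisson for CPM, Clopper-Pearson for shares, 95%) cover counting error only, since reads without molecular identifiers are not independent molecules; the spread over plates is the wider guide.

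Flt1 (chromosome 5, 147561604 to 147726011, minus strand) was read in 99.9% of cells (99.5% to 100%) and stood at 3455 CPM. Its median over cells was 3357 CPM, with 10% of cells under 1382 CPM and the highest cell at 10096 CPM. Per kilobase of exon (13504 bases, GENCODE M21), the scale on which levels of different genes are compared here, it stood at 255.9 CPM. Kdr (chromosome 5, 75932827 to 75978458, minus strand) followed at 72.1 CPM per kilobase and 651.3 CPM (648.8 to 653.7), with a read in 86.5% of cells. Flt4 (chromosome 11, 49609263 to 49652739, plus strand) stood at 21.5 CPM per kilobase and 177.3 CPM, with a read in 61.3% of cells (58.5% to 64.1%). Flt1 was thus read in nearly every cell, whereas Kdr and Flt4 were not read in part of the cells at this depth. The median cell had 531.6 CPM of Kdr and 61.5 CPM of Flt4, and the highest cells 3630 and 2112 CPM.

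The co-receptor Nrp1 (chromosome 8, 128358604 to 128503363, plus strand) stood at 42.1 CPM per kilobase and 412.5 CPM, with a read in 70.4% of cells (67.7% to 73%). Nrp2 (chromosome 1, 62703285 to 62818695, plus strand) stood at 9.95 CPM per kilobase and 117.9 CPM, with a read in 37.6% of cells (34.8% to 40.4%). It had a read in 528 cells at full depth, and 10% of all cells were above 443.2 CPM. Vegfc (chromosome 8, 54077606 to 54187096, plus strand), at 8.33 CPM per kilobase and 20.4 CPM, was read in 6.32% of cells (5% to 7.86%). Pgf (chromosome 12, 85166635 to 85177790, minus strand) and Vegfa (chromosome 17, 46016993 to 46032369, minus strand) were far lower, at 0.722 and 0.34 CPM per kilobase. The order of levels per kilobase over all cells was Flt1, Kdr, Nrp1, Flt4, Nrp2, Vegfc, Pgf and Vegfa, but its lower end depended on the plates. Without plate 521 Nrp2 was at 7.29 and Vegfc at 8.04 CPM per kilobase. Pgf without plate 521 was at 0.264 CPM per kilobase, and on plate 523 Vegfa (0.399) was above Pgf (0.1).

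The ligands were carried by few cells. Vegfc had a read in 92 cells at full depth, in which the median was 59 reads; 56 cells reached 100 CPM, the highest 1175 CPM, and 16 cells held 50% of all its reads. Vegfa had a read in 58 cells, in 32 of them a single read, and 5 cells held 50% of its reads; the highest cell had 248 CPM. Pgf had a read in 18 cells, and 3 cells held 50% of its reads, the highest at 810.3 CPM. Markers of another cell type (3 or more, as above) were carried by 1 of the 92 Vegfc cells, 4 of the 58 Vegfa cells (4.75% of Vegfa reads) and 0 of the 18 Pgf cells. Of the other VEGF ligands, Figf (the older symbol of Vegfd) stood at 14.6 CPM and Vegfb at 6.01 CPM.

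Between plates, Nrp2 differed most among the members at 20 CPM or more. On plates 521, 522, 523 and 524 it stood at 208.4, 170.7, 48.4 and 45.6 CPM, with a read in 60%, 52.8%, 18.2% and 19.6% of cells. The summed level of the 14 venous markers moved in the same order, 3712, 3009, 1439 and 1354 CPM, as did the 10 angiogenic markers (1415, 876, 165.5 and 135.2 CPM); their part in the Nrp2 values was not tested. Flt1 ran the opposite way, at 2394, 2933, 4194 and 4285 CPM. Capillary markers (8156, 9111, 12226 and 11676 CPM) and pericyte markers (14.1, 16.5, 126.9 and 66.1 CPM) were also higher on plates 523 and 524, and their part in the Flt1 values was not tested. Vegfc was low on plate 523 alone (22.5, 23.7, 8.09 and 27 CPM). Kdr (711.9, 636.2, 693.7 and 564.7 CPM) and Flt4 (201.4, 163.1, 177.7 and 165.9 CPM) were closer between plates, and Nrp1 (317.9, 434.2, 424.3 and 475.6 CPM) was lowest on plate 521. In all, 3 of the 6 members at 20 CPM or more on some plate were past 1.5-fold between the highest and lowest plate, against 44.5% of 9019 genes, so the count was near the background. Nrp1, at 1.49-fold with 1 CPM added to both plates, lay just under the limit.

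**Figure D1:**
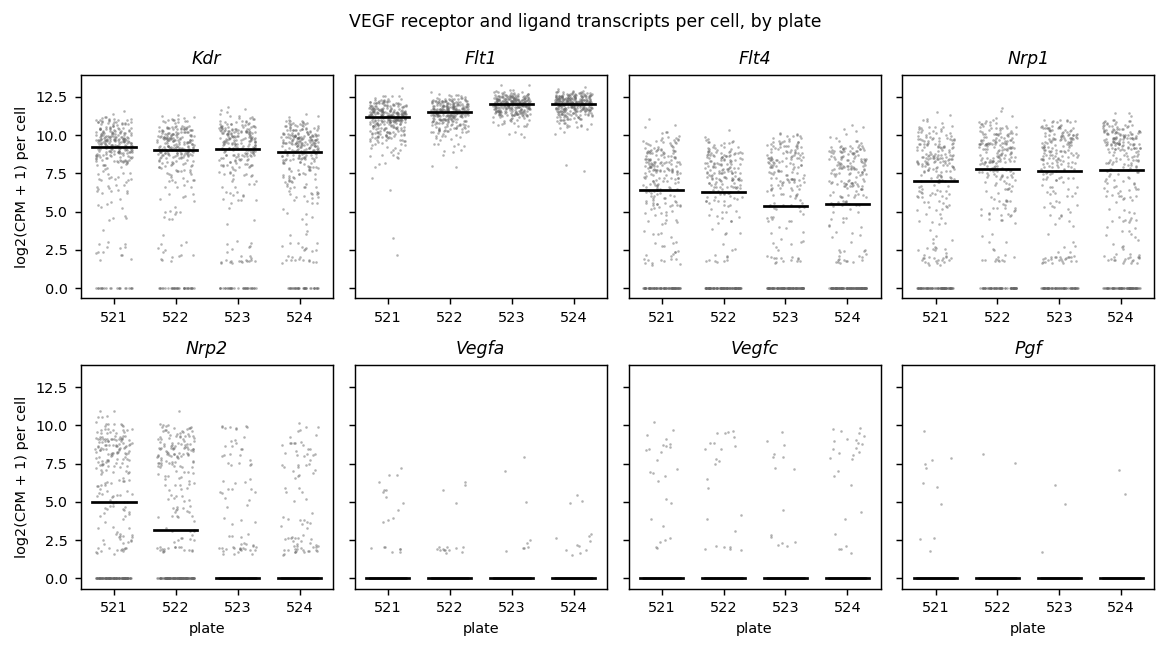
Level of each gene in every cell as log2(CPM + 1), by plate; points are cells and the line is the median of the plate. Flt1 was read in nearly every cell, Nrp2 had a median above 0 on plates 521 and 522 only, and the 3 ligands were at 0 in most cells of each plate.

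To follow the genes along the vessel tree, each cell was scored for arterial (13 of 14 listed markers such as Bmx, Gkn3 and Efnb2 were detected often enough), capillary (10 of 10, such as Mfsd2a and Tfrc) and venous markers (11 of 14, such as Nr2f2, Vwf and Slc38a5), as the mean z-score within its plate. Cells in the highest 20% for 1 score and for neither of the others formed the arterial-high (197), capillary-high (195) and venous-high (171) ranges, and 624 cells were in none or in more than 1. These are ranges of a score, not cell types: 47 cells lay within 2 percentage points of each limit. Every range had 40 or more cells on each plate, and median depths were 363867, 355344 and 360584 reads. A member was called between ranges at 20 CPM or more on either side, a pooled ratio of 1.5-fold or more (prior 1 CPM), and the same direction on each of the 4 plates. The score genes are excluded from all counts of genes.

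Kdr was highest in capillary-high cells. It stood at 926.5, 832.1, 872 and 680.1 CPM in capillary-high cells of plates 521 to 524 (829.2 CPM pooled). Arterial-high cells had 443.1, 516.6, 557.3 and 545.9 CPM (514.9 pooled), and venous-high cells 563.5, 578.8, 566.2 and 433.9 CPM (536.9 pooled). All capillary-high values were above all arterial-high and venous-high ones, while the latter ranges overlapped. The log2 ratio was -0.69 for arterial-high against capillary-high cells (plates -1.06 to -0.32) and -0.63 for venous-high against capillary-high cells. Both were near the limit of 1.5-fold, which is 0.58 on this scale: without plate 521 the arterial ratio was -0.56, and without the 267 cells that had any listed fibroblast, smooth muscle or pericyte marker at 10 CPM or more the ratios were -0.52 and -0.47. Pericyte markers summed to 41.8, 63.2 and 32.2 CPM in arterial-high, capillary-high and venous-high cells. In the same order, Rgs5 alone stood at 18, 49.2 and 19.1 CPM. Kcnj8, Abcc9, Pdgfrb, Vtn and Ndufa4l2 were highest in arterial-high cells and Higd1b in venous-high cells. Their part in the Kdr ratios was not tested. Over 5 equal bins of the capillary score Kdr climbed at each step, 461.3, 606, 651.9, 735.2 and 803.2 CPM.

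Flt4 was also highest in capillary-high cells. In capillary-high cells it stood at 286.7, 184.7, 186.2 and 182.3 CPM on the 4 plates, in arterial-high cells at 144.6, 131.9, 130.6 and 129 CPM, and in venous-high cells at 93.1, 133, 151.7 and 130.7 CPM. Capillary-high cells were higher on each plate than both others, and plate 521 stood apart. The log2 ratios to capillary-high cells were -0.65 (arterial-high) and -0.74 (venous-high), and without plate 521 they were -0.50 and -0.41, under 1.5-fold. At fixed depth Flt4 was read in 73.3% of capillary-high, 62.6% of venous-high and 47.7% of arterial-high cells. Along 5 bins of the arterial score it stepped down from 223.1 through 195.3, 170.3 and 162.3 to 137.9 CPM.

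Flt1 was set apart by low values in venous-high cells. There it stood at 1481, 1934, 3208 and 2972 CPM on the 4 plates, against 3061, 3160, 4359 and 4569 CPM in arterial-high and 2866, 3673, 4173 and 4706 CPM in capillary-high cells. Because plates differed, the ranges overlapped across plates, but on each of the 4 plates venous-high cells were the lowest. The log2 ratio was 0.69 for arterial-high against venous-high cells (plates 0.44 to 1.05) and -0.71 for venous-high against capillary-high cells. Arterial-high and capillary-high cells overlapped, with a log2 ratio of -0.02. Along the venous score Flt1 stepped down over the 5 bins, 3933, 3763, 3683, 3285 and 2594 CPM.

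Of the co-receptors, Nrp1 was highest in capillary-high cells, at 455.7, 621.9, 613.7 and 685.7 CPM on the 4 plates. Arterial-high cells had 329.8, 282.1, 380 and 451.4 CPM, all below the capillary-high values, and venous-high cells 214.5, 328.9, 333.4 and 266.7 CPM. The log2 ratios to capillary-high cells were -0.70 (arterial-high) and -1.06 (venous-high). Without plate 522 the arterial ratio was -0.58, and without the cells with fibroblast, smooth muscle or pericyte markers it was also -0.58, both just under 1.5-fold. Arterial-high and venous-high cells overlapped in Nrp1, and their ratio of 0.36 changed sign on 1 plate.

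Nrp2 was highest in venous-high cells, at 439.1, 365.3, 167.7 and 130.3 CPM on the 4 plates. Capillary-high cells had 87.3, 95.7, 10.5 and 47.7 CPM and arterial-high cells 66.4, 83.6, 0.85 and 3.61 CPM. The lowest venous-high plate was above the highest plate of either other range. The pooled levels were 282.4, 59.3 and 38.6 CPM, a log2 ratio of -2.84 for arterial-high against venous-high cells (plates -6.51 to -2.11) and 2.23 for venous-high against capillary-high cells. A read at fixed depth was present in 69.6% of venous-high, 25.1% of capillary-high and 22.8% of arterial-high cells. The gap between arterial-high and capillary-high cells (log2 ratio -0.61, lower on 4 of 4 plates) lay near the limit, and was -0.25 without plate 524 and -0.45 without the cells with fibroblast, smooth muscle or pericyte markers. Over the venous score Nrp2 climbed through 26.9, 71.9, 90.8, 153.9 and 248.9 CPM, and the share of cells with a read from 17.6% to 62.9%. Venous-high cells, 14.4% of all cells, held 34% of Nrp2 reads. Over all cells, 78 cells held 50% of its reads.

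The ligand Vegfc lay almost wholly in cells with arterial markers. Arterial-high cells had 110.9, 125.5, 45.5 and 132.3 CPM on the 4 plates, from 7689 reads. Venous-high cells had 6.5, 8.17, 0.211 and 2.46 CPM, from 264 reads, and capillary-high cells had 3 reads in all. All arterial-high values were above all venous-high and capillary-high ones. Venous-high and capillary-high values did not overlap either, but this rests on 3 reads in the lowest venous-high plate and 2 in the highest capillary-high plate. Both ranges were under 20 CPM, so Vegfc was not tested between them. Arterial-high cells were 24-fold above venous-high cells (21.3 to 27.3), a log2 ratio of 4.31 (plates 3.79 to 5.27), and 2428 times capillary-high cells, with a counting interval of 831 to 11778 set by those 3 reads. A read at fixed depth was present in 26.4% of arterial-high cells (20.4% to 33.1%), 2.34% of venous-high cells (0.641% to 5.88%) and 0 of 195 capillary-high cells (3 counts of the total, the limit taken for a count of 0, is 1.54%; at full depth 3 of these cells had a read). Over the 5 bins of the arterial score Vegfc stood at 1.99, 3.37, 1.82, 0.108 and 92.9 CPM, so it appeared at the top of the score and not by steps. Of the 75 cells with a read at fixed depth, 60 were in the highest 20% of the arterial score, where 92.9% of Vegfc reads lay, and 28 cells in the highest 5% held 50.5% of the reads. Within that highest bin 25.3% of cells had a read.

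Arterial-high cells also carried more of the summed fibroblast markers, 72.6 CPM against 3.77 in capillary-high and 5.58 in venous-high cells. A fibroblast, smooth muscle or pericyte marker at 10 CPM or more was present in 267 cells, of which 48 were arterial-high and 17 had Vegfc. Without these cells Vegfc stood at 117 CPM in arterial-high and 3.4 CPM in venous-high cells, a log2 ratio of 4.74. That alternative was chosen after seeing the data, and it keeps cells with such markers under 10 CPM. The part of fibroblast transcripts in the Vegfc values was not tested.

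Vegfa was below 20 CPM in every range and was not called. It stood at 14.1, 4.45, 6.67 and 0.0963 CPM in arterial-high cells of the 4 plates, the last of these from 2 reads. Pooled values were 6.14 CPM (442 reads) in arterial-high, 0.322 CPM (22 reads) in capillary-high and 0.488 CPM (29 reads) in venous-high cells. Arterial-high cells were the highest on plates 521, 522 and 523, and were below capillary-high cells on plate 524. These values rest on few cells: 12, 4, 3 and 2 arterial-high cells of the 4 plates had a read at full depth. On plate 523 only 1 had a read at fixed depth. Of 33 cells with a Vegfa read at fixed depth, 19 were in the highest 20% of the arterial score, which held 86.6% of its reads. Pgf, with 2.97, 0.557 and 5.53 CPM in arterial-high, capillary-high and venous-high cells, had no order that held on all plates; its venous-high value came mainly from plate 521 (16.9 CPM, against 0, 1.76 and 1.76 on the others), where 1 cell held 278 of 279 reads.

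**Figure D2:**
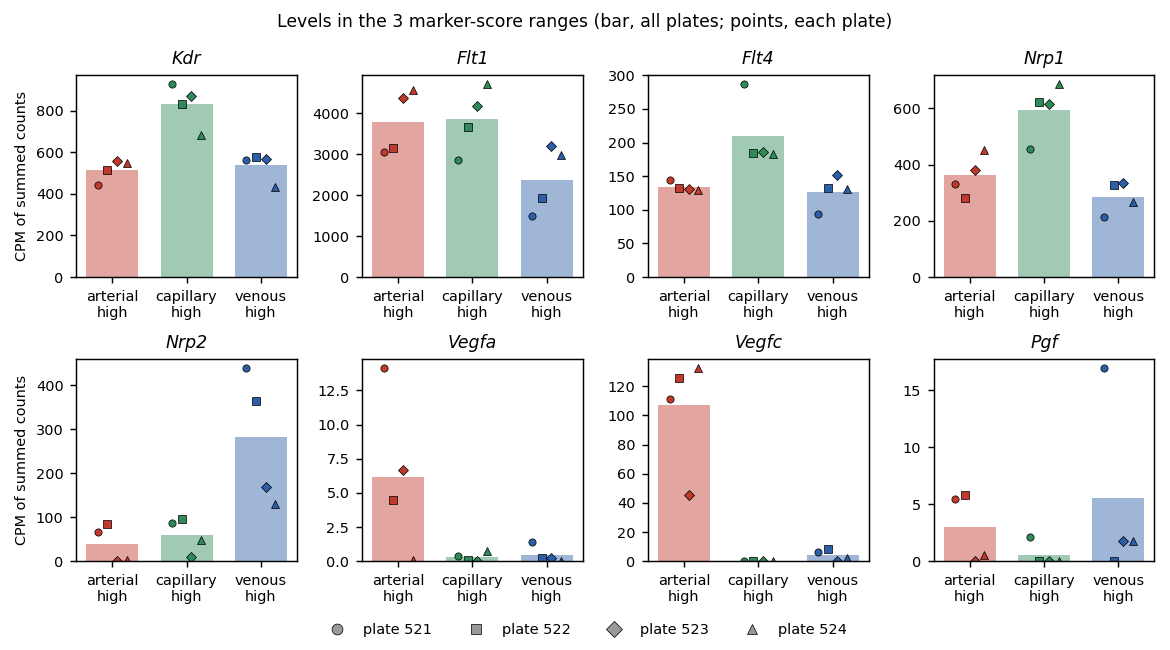
CPM of summed counts in arterial-high, capillary-high and venous-high cells; bars are all plates together and points are the 4 plates. Kdr, Flt4 and Nrp1 were highest in capillary-high cells, Nrp2 in venous-high cells (130.3 to 439.1 CPM) and Vegfc in arterial-high cells (45.5 to 132.3 CPM).

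**Figure D3:**
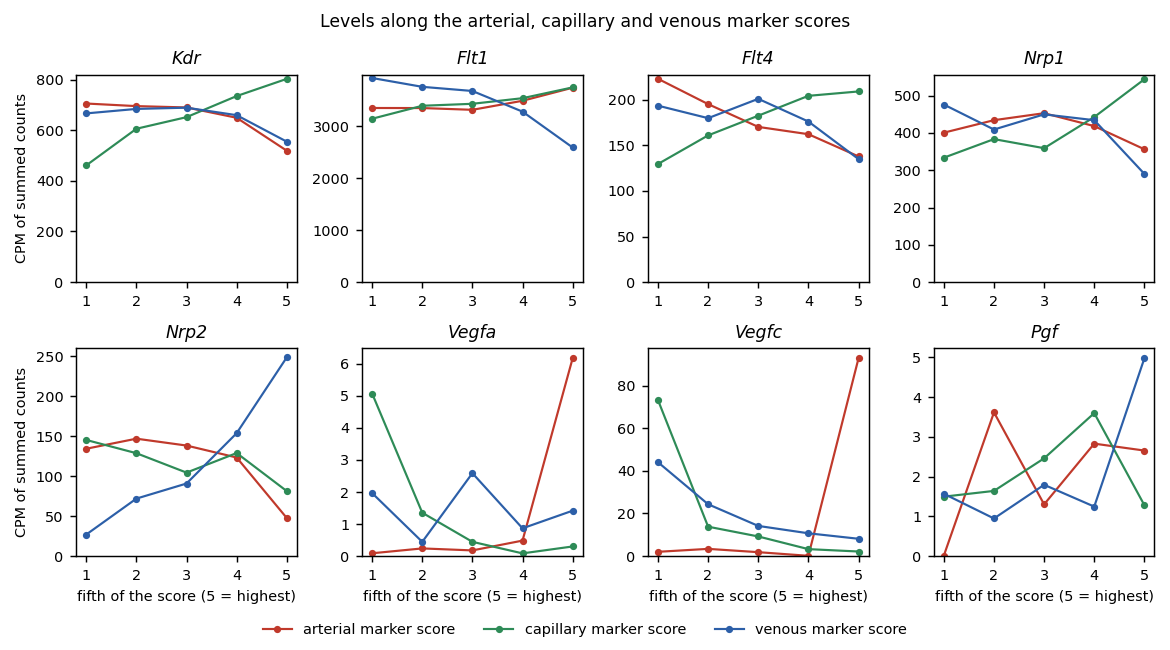
CPM of summed counts in 5 equal bins of each marker score, from lowest to highest. Nrp2 climbed over the venous score from 26.9 to 248.9 CPM and Kdr over the capillary score from 461.3 to 803.2 CPM, whereas Vegfc and Vegfa appeared in the highest arterial bin.

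Counted together, 3 of 6 members tested were called between arterial-high and venous-high cells, with Flt1 and Vegfc higher and Nrp2 lower in arterial-high cells. Among 8789 genes tested, 7.18% were called higher and 5.44% lower. Between arterial-high and capillary-high cells 5 of 6 were called, with Vegfc higher and Kdr, Flt4, Nrp1 and Nrp2 lower (background 8.25% higher and 5.44% lower). This count was 3 without plate 521 (Vegfc, Nrp1 and Nrp2) and 2 without the cells with fibroblast, smooth muscle or pericyte markers (Vegfc and Flt4). Between venous-high and capillary-high cells 5 of 5 were called, with Nrp2 higher and Kdr, Flt1, Flt4 and Nrp1 lower (background 6.07% higher and 4.67% lower). The median log2 ratio of all genes was between -0.01 and 0.03 in these comparisons. The comparisons share ranges, so their counts are not independent.

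**Figure D4:**
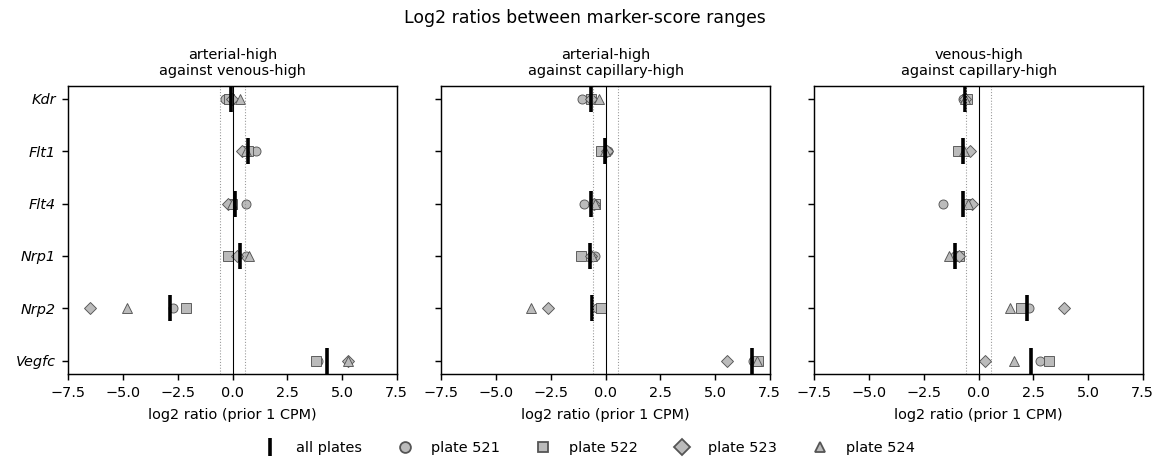
Log2 ratio between ranges for the 6 members that reached 20 CPM, with the pooled value as a bar and each plate as a point; dotted lines mark 1.5-fold. Vegfc in arterial-high cells and Nrp2 in venous-high cells lie far from 0 on all plates, and the ratios of Kdr and Flt4 to capillary-high cells lie close to the dotted line.

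The 237 cells with the highest 20% of an angiogenic score (8 of 10 listed markers, such as Angpt2 and Apln, known from sprouting tip cells) were set against the other 950. None of 6 members tested was called, with 1.8% of 8560 genes called higher and 2.23% lower. The values leaned the same way for Flt4 (226.2 against 165.3 CPM, log2 ratio 0.45, higher on 4 of 4 plates) and Nrp1 (508.1 against 389 CPM, 0.39, 4 of 4 plates). Kdr, at 786.6 against 618.1 CPM, was higher on 3 of 4 plates. On plate 521 the log2 ratios of Kdr, Flt4 and Nrp1 were 0.64, 0.62 and 0.91, and on plate 524 they were -0.03, 0.18 and 0.04. The angiogenic markers were also highest on plate 521 and lowest on plate 524, as given above, while the score takes 20% of the cells of each plate; their part in these ratios was not tested. Flt1 (-0.09) lay close to 0, and Nrp2 went both ways (-0.46, 0.14, -1.49 and 0.67 on the 4 plates). Without plate 524, and with the highest 10% of the score, Vegfc was called lower in angiogenic-high cells.

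Receptors were read together in most cells. At 100000 reads per cell 643 cells (54.2%) had a read of all 3 receptor kinases, 468 (39.4%) of 2 and 76 (6.4%) of 1. Kdr and Flt4 were both read in 54.2% of cells, and the product of their single shares is 53.1%.

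The neuropilins split by range. Nrp1 without Nrp2 was read in 61% of capillary-high and 52.3% of arterial-high cells but 18.7% of venous-high cells. Both were read in 43.3% of venous-high cells, against 21.5% of capillary-high and 16.8% of arterial-high cells. Nrp2 without Nrp1 was read in 26.3%, 3.59% and 6.09% of venous-high, capillary-high and arterial-high cells. Among the 75 cells with Vegfc, 62 also had Kdr, 38 had its receptor Flt4 (50.7%) and 17 had Nrp2 (22.7%), close to the shares in all arterial-high cells (47.7% and 22.8%), to which most Vegfc cells belong. All 33 Vegfa cells and all 16 Pgf cells at fixed depth had Flt1.

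The genes whose levels ran most alike were found by Pearson's r of log2(CPM + 1) over 16 sums (4 plates by 3 ranges and the remaining cells), among 8205 genes of 20 CPM or more outside the score lists. The sums share plates and ranges, so r is a description of likeness only. Flt1 was most like Rasgrp3 (r = 0.972), Gm20659 (0.96) and Sorbs3 (0.959), and Nrp2 was most like Lbp (0.933), Adh1 (0.929) and Eif3f (0.921). Kdr was most like Tdrp (0.914), Cdkn2b (0.881) and Bcl2 (0.862), and Nrp1 like Slco1c1 (0.902), a thyroid hormone transporter of brain endothelium, Klhl6 (0.859) and Ivns1abp (0.857). Vegfc was most like Col14a1 (0.901), Gm20460 (0.893) and B230206H07Rik (0.886). The closest genes were less alike for Flt4 (Plekhh2, 0.834), Vegfa (Cit, 0.813) and Pgf (Mcu, 0.798).

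Other genes of the pathway were taken as lists. Of 12 semaphorin and plexin genes that pair with neuropilins, 6 were tested between arterial-high and venous-high cells and 1 was called. Over all genes 7.18% were called higher and 5.44% lower, so a count of 1 is near the background. The gene called was Sema3g, a class 3 semaphorin, at 172.8 against 3.67 CPM (log2 ratio 5.22, plates 4.32 to 7.27). It was also above capillary-high cells (18.4 CPM, 3.16), the 1 of 6 called there (background 8.25% higher and 5.44% lower). Sema3c, another neuropilin ligand, was lower in venous-high than in capillary-high cells (337.3 against 521.7 CPM, -0.63). It was the 1 of 5 called there, where 4.67% of all genes were called lower. The list's median log2 ratio was 0.02, -0.25 and -0.30 in arterial-high against venous-high, arterial-high against capillary-high and venous-high against capillary-high cells.

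Of 30 genes of VEGF receptor signalling, 27 were tested between arterial-high and venous-high cells. Of these, 3 were called higher and 2 lower (background 7.18% and 5.44%), with a median log2 ratio of 0.04. The kinases Fyn (70 against 32.2 CPM) and Mapk3 (217.2 against 125.4 CPM) and the adaptor Nck2 (27.1 against 14.4 CPM) were higher in arterial-high cells. The adaptors Dab2, which acts in receptor uptake (103.3 against 205.6 CPM), and Shb (8.71 against 21.6 CPM) were lower. Against capillary-high cells 2 of 26 were higher in arterial-high cells and 0 lower (background 8.25% and 5.44%). These were Mapk3 and the receptor phosphatase Ptprj (90.3 against 14.3 CPM, log2 ratio 2.58). In venous-high against capillary-high cells, 3 of 26 were higher (Shb, Ptprj and Dab2) and 1 (Fyn) was lower (background 6.07% and 4.67%). These counts are few and near the background.

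Of 16 genes known to respond to VEGF, 12 were outside the score lists and 8 were tested. Between arterial-high and venous-high cells 3 were higher and 1 lower (background 7.18% and 5.44%). The list's median log2 ratio was 0.81 there, 0.14 in arterial-high against capillary-high and -0.21 in venous-high against capillary-high cells. Dll4, the Notch ligand of arteries and tip cells, stood at 279.2 against 66.2 CPM (log2 ratio 2.06) and was also low in venous-high against capillary-high cells (283.6 CPM, -2.08). Spry4, an inhibitor of receptor kinase signalling, was at 33 and 33.8 CPM in arterial-high and capillary-high cells and at 0.942 CPM in venous-high cells. Nr4a2, an immediate early gene, was higher (103.9 against 27.2 CPM) and Rcan1, a calcineurin inhibitor, lower (54.9 against 96.2 CPM) in arterial-high than in venous-high cells. Against capillary-high cells, 3 of 8 (Lrrc32, Nr4a2 and Nr4a1) were higher in arterial-high cells and 0 lower (background 8.25% and 5.44%). Lrrc32 was also higher in venous-high than in capillary-high cells (118 against 29.6 CPM). It was the 1 of 8 called higher there, and Spry4 and Dll4 were the 2 called lower (background 6.07% and 4.67%).

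Of 14 hypoxia genes, 11 were tested in arterial-high against venous-high cells, of which P4ha2, a collagen prolyl hydroxylase subunit, was higher and Ankrd37 lower; 1 of 11 in each direction is near the background of 7.18% and 5.44%. Against capillary-high cells 2 of 11 were higher in arterial-high cells (P4ha2 and Pfkfb3, a regulator of glycolysis) and 2 lower. Over all genes 8.25% were called higher and 5.44% lower in that comparison. The 2 lower hypoxia genes were Ankrd37 (7.6 against 56.9 CPM) and Ldha, a lactate dehydrogenase subunit (313.4 against 538.2 CPM). Ankrd37 was also the 1 of 9 called in venous-high against capillary-high cells (21.1 against 56.9 CPM), where 4.67% of all genes were called lower. In angiogenic-high against other cells 1 semaphorin gene (Sema3g, 34.7 against 70.4 CPM) and 1 signalling gene (Ptprj, 23.7 against 42.5 CPM) were lower. There 0 of 8 VEGF-response and 0 of 10 hypoxia genes tested were called. With a background of 1.8% higher and 2.23% lower, these counts of 0 are near the background. The median log2 ratio there was 0.48 for the VEGF-response list and 0.24 for the hypoxia list, against -0.01 over all genes. It was -0.33 for the semaphorin and plexin list and 0.03 for the signalling list.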

How the data were processed

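Single sorted brain endothelial cells were sequenced by Smart-seq2, per the labels' protocols. The deposited table holds the authors' whole-number read counts per gene. Per the submitters' processing notes, the tools were featureCounts, Subread 1.4.6-p5, TopHat2 2.1.1 and SAMtools 0.1.18, on GRCm38/mm10; strand and duplicate handling are not given in the sources used here. The highest count of any gene in a cell was 3396, and the leading gene took a median of 0.514% of a cell's reads. Counts were summed over cells and scaled to a total of 1000000, CPM (Python 3.11.15, pandas 2.3.3). Nrp1 shares exon bases with Mir1903. Columns could not be joined to labels, so all cells were 1 pooled sample; no doublet caller was run and no cell was removed. Scores, ranges, the prior of 1 CPM, the minimum of 20 CPM and thinning to 100000 reads are as the report gives them. The ratio between ranges was tested on simulated counts with known folds, for the median ratio recovered. The simulation had no plate effects and no scoring of cells, so it does not cover calls that arise from either. Alternatives used edgeR 4.0.16 (TMM) and DESeq2 1.42.0 (size factors), other score definitions, and each plate left out. All members are named; of each pathway list, at most the 4 largest called genes in each direction. The members and lists were chosen with earlier results of these data known. Sequences are RefSeq's, GRCm38.p6.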

Additional observations from a re-analysis of the deposited data

Results flagged for a closer look

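Of 31 sets of 4 plate values checked for a value far from the others by Dixon's ratio of gap to range, 2 had one, and chance alone flags about 1 in 20. The log2 ratio of Flt4 in arterial-high against capillary-high cells was -0.983 on plate 521 and -0.483, -0.509 and -0.495 on plates 522, 523 and 524, with a gap of 0.948 of the range. The log2 ratio of Flt4 in venous-high against capillary-high cells was -1.61 on plate 521 and -0.471, -0.294 and -0.477 on the others (0.861 of the range). Both use the same capillary-high cells of plate 521, where Flt4 stood at 286.7 CPM. In venous-high cells Flt4 was also lowest on plate 521, at 93.1 CPM against 133, 151.7 and 130.7 CPM on plates 522, 523 and 524.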

How the results depend on the processing

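Across 13 called ratios and 15 alternatives each, 195 values were computed, of which 189 lay within 1 SD of the plates, 6 moved farther and 0 changed sign. The arterial-high against venous-high calls of Flt1 (0.58 to 0.89), Nrp2 (-3.62 to -2.62) and Vegfc (3.57 to 4.74) and the venous-high against capillary-high ratio of Nrp2 (2.04 to 3.24) stayed past 1.5-fold in all of them. Members called in arterial-high against capillary-high cells (5) were 3 to 5 when each plate was left out and 2 without cells with a fibroblast, smooth muscle or pericyte marker, an alternative chosen after seeing the data. The Nrp2 ratio there fell under 1.5-fold in 7 of 15 alternatives, and those of Kdr and Nrp1 in 2 each. Venous-high against capillary-high, Kdr and Flt4 did so in 2 each. Members called in angiogenic-high cells (0) were 1 with the highest 10% of the score and 0 to 1 when each plate was left out. Members past 1.5-fold between plates (3) were 5 with no minimum CPM, which adds Vegfa and Pgf, and 2 to 3 when each plate was left out. This count was 4 without cells with markers of other types, and 4 without cells with a fibroblast, smooth muscle or pericyte marker. No alternative moved the level of a member by more than the SD of its plates, which is wide for Pgf (2.1 CPM, and 0.766 CPM without plate 521). Vegfa and Pgf rest on few cells. Depth limits Vegfa, with a read in 33 cells at fixed depth and 58 at full depth. It changed Pgf little (16 and 18 cells). No paired analysis was possible because the columns carry no replicate number or genotype; ranges were instead compared within each plate.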
